A study of Mus musculus with 31 samples.

Results

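The comparison described here asks what dexamethasone, a synthetic glucocorticoid, does to the RNA of activated mouse macrophages whose BRD9 protein has been targeted for degradation. It was taken from the labels as the group given dexamethasone, the degrader dBRD9, interferon gamma and LPS against the group given the same agents without dexamethasone, over all genes. Each group has 2 libraries, so the comparison uses 4 of the 31 libraries in the series. The cells were macrophages derived from bone marrow of male C57BL/6J mice aged 6 to 12 weeks, grown with L-929 conditioned medium and then kept without serum. Dexamethasone (Dex, 1 µM) and dBRD9 (250 nM) were added overnight. LPS, which comes from the outer membrane of bacteria, was added at 100 ng/ml over the final 3 h. For interferon gamma (IFNγ), dose and timing were not given in the sources used here. Beside these 4 libraries stand 2 libraries each of IFNγ + LPS and of Dex + IFNγ + LPS, which had no degrader, and 2 of vehicle, all from the same experiment (experiment 2, 10 libraries). A separate experiment (experiment 1) has 3 libraries each of dBRD9 + LPS and Dex + dBRD9 + LPS, without IFNγ. The labels do not say that replicates came from separate animals or cultures, so p-values measure only the spread between these libraries, which may be technical. Whole cultures were sequenced, so fewer cells of a type and less RNA per cell cannot be told apart.

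The glucocorticoid receptor, encoded by Nr3c1, is a transcription factor that waits in the cytosol with heat shock chaperones and enters the nucleus when it binds a glucocorticoid. There it raises a set of genes by binding palindromic DNA elements, and lowers many inflammatory genes that depend on NF-κB and AP-1, which is the basis of the use of Dex as an anti-inflammatory drug. BRD9 is a bromodomain protein found in the non-canonical BAF complex, an ATP-dependent chromatin remodeller, and dBRD9 removes it as a protein. LPS signals through Toll-like receptor 4 to NF-κB and to the type I interferon pathway, and IFNγ signals through JAK1 and JAK2; together they drive the classical, microbicidal state of macrophages.

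The start sites of a few genes help to place the results below. RefSeq promoter sequences (GRCm38.p6), from 250 bases before to 50 bases after a start site, were matched by symbol to 9622 of the 13313 genes tested. The palindrome made of GNACA, any 3 bases and TGTNC, which reads the same on both strands and is a strict form of the element bound by the glucocorticoid receptor, was in 0.475% of all 32851 promoters and in 0.301% of the genes tested. It was in 4 of 426 genes (0.939%) that were called and at least 2-fold higher with Dex and in 1 of 378 (0.265%) that were called and at least 2-fold lower. The motif made of GAAA, any 2 bases and GAAA, a form of the interferon-stimulated response element, searched on both strands, was in 3.44% of all promoters and in 4.09% of the genes tested. It was in 13 (3.05%) of the higher and 29 (7.67%) of the lower genes. These counts describe letters in this window only. The 250 bases before the start are printed for 6 genes, chosen after their values were seen, with the motif in capitals. Mt1 (chr8:94178839-94179088, plus strand) and Slc10a6 (chr5:103629404-103629653, minus strand) rose with Dex and hold the palindrome, 94 to 82 and 163 to 151 bases before the start. Rsad2 (chr12:26456453-26456702, minus strand) and Isg15 (chr4:156200819-156201068, minus strand) fell and hold the interferon motif, in Isg15 as 3 overlapping matches. Cxcl10 (chr5:92348890-92349139, minus strand) holds the interferon motif 213 to 204 bases before the start and was not called. Saa3 (chr7:46715677-46715926, minus strand) holds the interferon motif 125 to 116 bases before the start and rose.
Mt1: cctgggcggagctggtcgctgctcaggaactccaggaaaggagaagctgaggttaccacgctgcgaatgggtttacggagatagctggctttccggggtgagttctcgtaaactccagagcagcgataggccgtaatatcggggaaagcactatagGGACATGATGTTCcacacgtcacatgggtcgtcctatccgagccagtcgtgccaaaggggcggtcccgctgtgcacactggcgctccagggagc
Slc10a6: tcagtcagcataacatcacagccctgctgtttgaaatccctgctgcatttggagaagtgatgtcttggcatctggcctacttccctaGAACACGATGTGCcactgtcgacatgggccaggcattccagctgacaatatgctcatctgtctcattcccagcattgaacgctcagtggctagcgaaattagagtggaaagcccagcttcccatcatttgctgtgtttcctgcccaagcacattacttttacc
Rsad2: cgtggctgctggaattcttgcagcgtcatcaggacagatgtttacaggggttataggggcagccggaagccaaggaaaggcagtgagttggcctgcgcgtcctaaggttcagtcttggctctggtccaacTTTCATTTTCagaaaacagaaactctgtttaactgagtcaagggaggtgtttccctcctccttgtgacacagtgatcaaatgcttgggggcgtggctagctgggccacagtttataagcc
Isg15: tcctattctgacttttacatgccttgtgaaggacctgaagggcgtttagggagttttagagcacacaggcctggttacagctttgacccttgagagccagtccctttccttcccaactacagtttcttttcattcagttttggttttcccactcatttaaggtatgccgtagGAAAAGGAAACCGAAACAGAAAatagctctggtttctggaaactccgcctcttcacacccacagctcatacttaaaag
Cxcl10: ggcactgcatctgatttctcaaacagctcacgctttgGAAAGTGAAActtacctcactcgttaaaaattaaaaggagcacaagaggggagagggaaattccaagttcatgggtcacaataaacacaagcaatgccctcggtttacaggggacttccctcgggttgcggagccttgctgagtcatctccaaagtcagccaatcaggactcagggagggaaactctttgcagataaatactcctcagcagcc
Saa3: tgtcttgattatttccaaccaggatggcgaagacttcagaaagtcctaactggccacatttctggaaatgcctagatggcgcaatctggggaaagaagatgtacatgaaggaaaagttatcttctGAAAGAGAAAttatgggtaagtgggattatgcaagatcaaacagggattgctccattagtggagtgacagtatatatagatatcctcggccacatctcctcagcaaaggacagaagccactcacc

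The 4 libraries held 15492793 to 15880188 counts, within the 14472828 to 17930566 of experiment 2. Levels are given as CPM, counts scaled to a common library total, after TMM scaling of the totals. Values for a gene are given below in a fixed order: dBRD9 + IFNγ + LPS replicates 1 and 2 (the control libraries), then Dex + dBRD9 + IFNγ + LPS replicates 1 and 2 (the Dex libraries). Replicates differed by more than counting error, with a chi-square per degree of freedom of 13.35 between the control libraries and 3.179 between the Dex libraries, where 1 is counting error alone. Control replicate 2 had 0.1138% of its counts in unconfirmed transcript models (biotype TEC) and the other 3 had 0.05159 to 0.07214%. Macrophage identity genes summed to between 24410 and 26120 CPM in the 4 libraries, led by Lyz2. Brd9 RNA was measured at 24.0, 18.3, 18.6 and 22.5 CPM, a log2 change of -0.04 (SE 0.16, adjusted p 0.886). A degrader acts on the protein, so this RNA level does not check that BRD9 was lost.

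Dex changed the RNA of 3775 of 13313 genes in these cells. Calls were made where edgeR's quasi-likelihood test gave an adjusted p (Benjamini-Hochberg) below 0.05, and by this rule 1858 were higher (14.0% of genes tested) and 1917 lower (14.4%). Changes of at least 2-fold were called in 552 genes higher (4.15%) and 732 lower (5.5%). The 2 Dex libraries lay above both control libraries in 4909 genes (36.9%) and below both in 4000 (30.0%), and all 3775 called genes were among these. A total of 5251 genes had an unadjusted p under 0.05. The shares of all genes, 14.0% higher and 14.4% lower, stand beside every list count of this comparison below. The balance between directions moved with the scaling: 49.22% of calls were higher with TMM factors, 36.54% with DESeq2 (1191 higher, 2068 lower), 39.05% with relative log expression factors (1421 and 2218) and 63.3% with library totals alone (2613 and 1515). With library totals alone the median log2 fold change of all genes was 0.15, against 0.05 with TMM factors. Leaving out a library, which leaves 1 library in that group and assumes it varies like the others, gave fewer calls. There were 1286 higher and 1524 lower without control replicate 1, and 1044 and 1254 without control replicate 2. There were 1083 and 1180 without Dex replicate 1, and 927 and 1066 without Dex replicate 2.

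Genes known to be induced by the glucocorticoid receptor had the highest median of the lists plotted by direction. Of 33 tested members, 16 were called higher and 4 lower, with a median log2 fold change of 0.66 against 0.05 for all genes. The 4 lower became 2 without Dex replicate 2. Tsc22d3, which encodes GILZ, an anti-inflammatory leucine zipper protein, lies on chromosome X from 140539528 to 140600659 (mm10, GENCODE M21). It was at 3.66 and 3.15 CPM in the control libraries and at 266 and 260 CPM in the Dex libraries, a log2 change of 6.27 (SE 0.14, adjusted p 1.05e-13). Both Dex libraries stood far above both control libraries, and above the 42.9 and 44.5 CPM of the vehicle libraries. Fkbp5 (chromosome 17, 28399094 to 28517527), a co-chaperone that lowers the affinity of the receptor for its ligand, went from 10.98 and 10.41 to 299 and 273 CPM (log2 4.74, SE 0.12, adjusted p 3.66e-13). Dusp1 (chromosome 17, 26505590 to 26562128), a phosphatase that switches off p38 and JNK, went from 63.1 and 57.1 to 738 and 740 CPM (log2 3.62, SE 0.11, adjusted p 4.39e-12). For both genes the 2 groups were far apart and the replicates close together.

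Other members rose with them. Per1, a circadian clock repressor, went from 2.85 and 3.45 to 74.1 and 82.3 CPM. Tns1, which links integrins to actin, went from 15.6 and 20.4 to 378 and 377 CPM. The metallothioneins, small proteins that bind zinc and copper, rose as well: Mt1 from 651 and 813 to 8123 and 8124 CPM, and Mt2 by 4.16 on the log2 scale. The transcription factor Klf9 rose by 2.70 and the siderophore-binding protein gene Lcn2 by 4.01. Cd163, the scavenger receptor for haemoglobin and a marker of glucocorticoid-treated macrophages, went from 2.85 and 1.91 to 12.5 and 10.1 CPM (log2 2.24, SE 0.28, adjusted p 2.19e-05). Zbtb16 had 2 reads in the control libraries and 22 in the Dex libraries, a ratio of 10.2 with an exact 95% interval of 2.5 to 89.1 that covers counting error only. Its call (adjusted p 0.0121) was lost with DESeq2 and without control replicate 1, control replicate 2 or Dex replicate 2 (adjusted p 0.0721, 0.0816 and 0.113).

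Not every gene of the list rose. Anxa1, a mediator of the resolution of inflammation, was at 1188, 1080, 1030 and 1121 CPM (log2 -0.08, SE 0.11), and Zfp36, which encodes the mRNA-destabilising protein tristetraprolin, at 1422, 1166, 1355 and 1220 CPM (log2 -0.01, SE 0.11). In both genes the groups overlapped. The scavenger receptor gene Msr1 went the other way, from 370 and 327 to 207 and 197 CPM (log2 -0.79, SE 0.11, adjusted p 6.15e-05). Sgk1, a kinase of ion transport, fell by 0.63. The other called members that were lower were Errfi1 and Bcl6. Errfi1 (log2 -0.63) was not called without Dex replicate 2 (adjusted p 0.0568). Bcl6 (log2 -0.41) was not called without any 1 of the 4 libraries (adjusted p 0.0712 to 0.142). Nfkbia, the inhibitor that holds NF-κB in the cytosol, rose by 0.30 (SE 0.10, adjusted p 0.0356). This call was kept without control replicate 1 and lost without each of the other 3 libraries. It was also lost with DESeq2, with relative log expression factors, without the gene filter and with a replicate block.

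Nr3c1 itself was at 158, 126, 144 and 131 CPM, with overlapping groups and a log2 change of -0.05 (SE 0.16, adjusted p 0.836). Of 18 tested genes for the receptor, its chaperones and its coregulators, 4 were called lower and 0 higher. Of all genes tested 14.4% were called lower and 14.0% higher. The 4 lower members were the chaperone Hsp90aa1 (log2 -0.45), the coactivators Ncoa3 (-0.65) and Ep300 (-0.73), and the Mediator subunit Med1 (-0.36). These 4 calls became 2, 2, 2 and 1 without control replicates 1 and 2 and Dex replicates 1 and 2 in turn, and 3 to 7 over the other scalings, filters and tests.

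Beyond that list, an acute-phase gene, a regulator of glycolysis and others rose as well. Saa3 (chromosome 7, 46711998 to 46715700), an acute-phase serum amyloid made by activated macrophages, went from 8.49 and 7.26 to 322 and 337 CPM (log2 5.39, SE 0.19, adjusted p 3.07e-11). Pfkfb3, which makes the allosteric activator of glycolysis fructose 2,6-bisphosphate, went from 45.9 and 43.7 to 889 and 891 CPM. The transcription factor Klf2, which restrains inflammatory gene expression in monocytes, rose by 4.34, the salt-inducible kinase gene Sik1 by 4.06, the sulfotransferase gene Sult1a1 by 4.01 and the protease gene Prss16 by 3.94 on the log2 scale. For each of these genes both Dex libraries were above both control libraries. Slc10a6, a transporter of sulfated steroids, had 0 reads in the control libraries and 99 in the Dex libraries, at least 30.5-fold higher with 3 reads over the group as the floor.

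**Figure D1:**
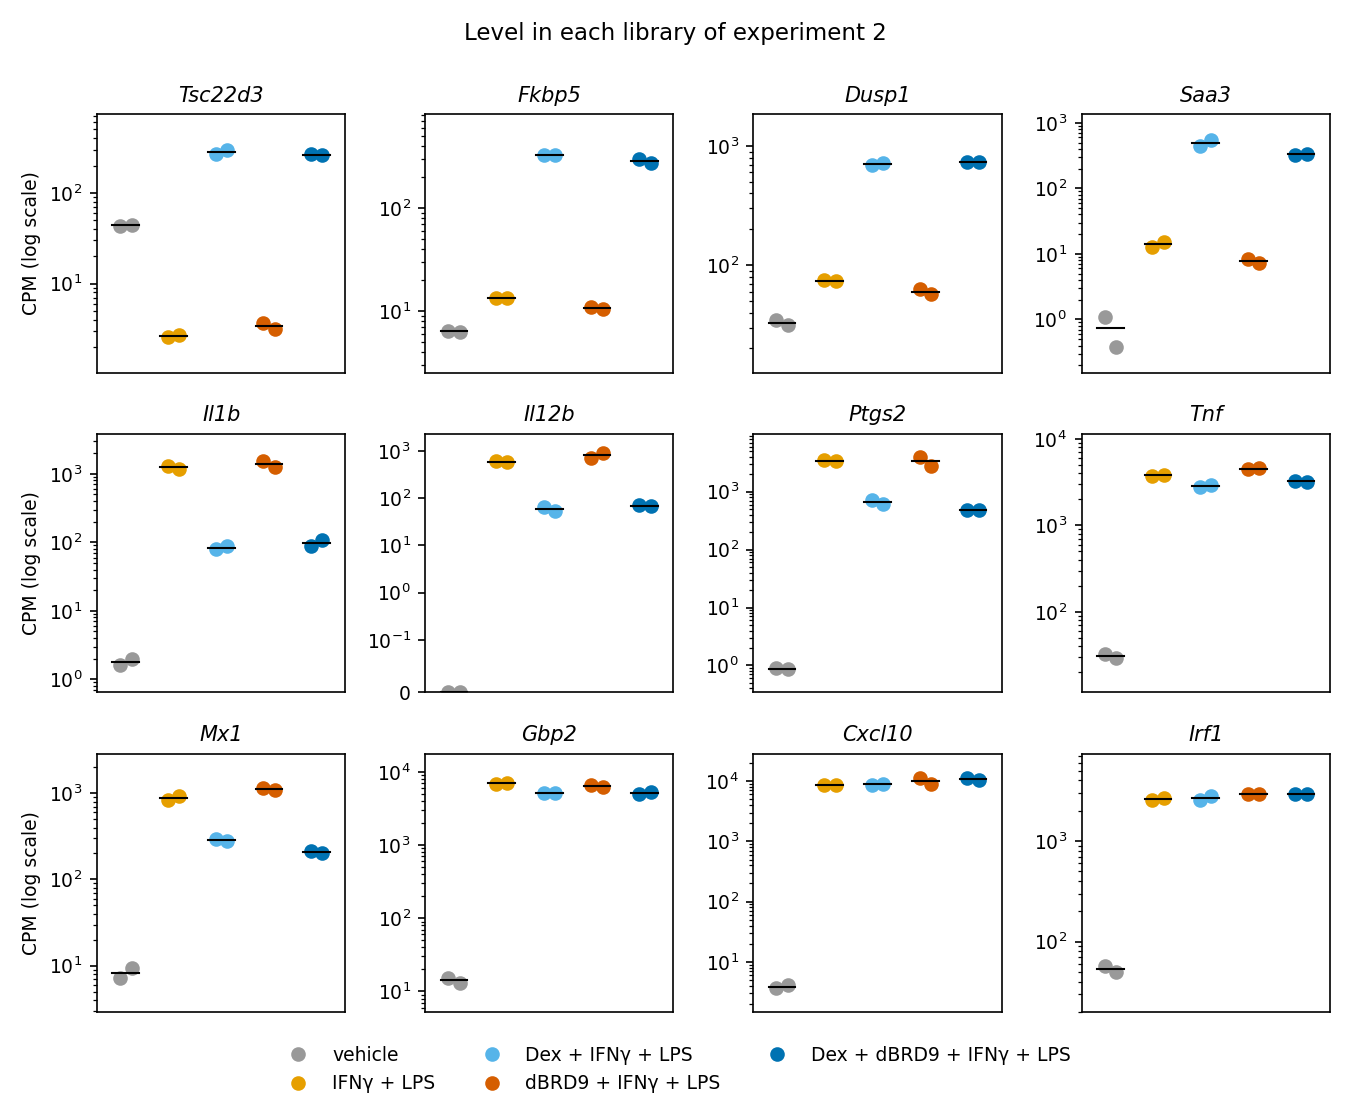
Level of 12 genes in each of the 10 libraries of experiment 2, in CPM on a logarithmic axis (for Il12b the axis is linear below 0.1, since vehicle was at 0); points are libraries and bars are the mean of 2. Tsc22d3, Fkbp5, Dusp1 and Saa3 are higher in both Dex groups, Il1b, Il12b, Ptgs2 and Mx1 are lower, and the groups with and without Dex overlap for Cxcl10 and Irf1 in degrader-treated cells.

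The inflammatory cytokines made up the list with the lowest median. Of 28 tested members 24 were called lower and 2 higher, with a median log2 fold change of -1.58, and leaving out a library left 19 to 21 lower. Il1b (chromosome 2, 129364570 to 129371139), the precursor of interleukin 1β, went from 1533 and 1266 to 89.3 and 107 CPM (log2 -3.83, SE 0.14, adjusted p 3.07e-11). Il12b (chromosome 11, 44400063 to 44414033), the subunit shared by interleukins 12 and 23, went from 717 and 911 to 71.6 and 67.0 CPM (log2 -3.55, SE 0.14, adjusted p 2.84e-10). Il6 went from 324 and 233 to 46.2 and 58.2 CPM (log2 -2.42, SE 0.17, adjusted p 3.97e-08). In all 3 genes the control libraries were several times the Dex libraries. Lif, a cytokine of the interleukin 6 family, fell by 4.32 and Il1a by 2.46. Inhba, the activin A subunit, fell by 2.98, and Il27, a regulator of T cells, by 1.57. The inhibitor of interleukin 1, Il1rn, fell too, from 2297 and 2079 to 739 and 723 CPM. Ifnb1, the gene of interferon β, was at 1.83, 2.86, 0.206 and 0.267 CPM (log2 -3.27, SE 0.52, adjusted p 0.000279).

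Tnf, the gene of tumour necrosis factor, fell by less than 2-fold. It was at 4495 and 4580 CPM in the control libraries and at 3269 and 3194 CPM in the Dex libraries, a log2 change of -0.49 (SE 0.10, adjusted p 0.00246). The groups did not overlap. The 2 members called higher were Tnfsf9, the ligand of the costimulatory receptor 4-1BB, from 170 and 173 to 316 and 318 CPM, and Csf3, the granulocyte growth factor, with 0 reads in the control libraries and 21 in the Dex libraries (at least 6.47-fold). Il19 and Lta were the tested members that were not called.

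Chemokines split by gene. Of 12 tested CC chemokines, 7 were called lower and 2 higher. Ccl3 went from 1913 and 1191 to 537 and 508 CPM (log2 -1.57, SE 0.17), and Ccl4 from 1361 and 1040 to 471 and 397 CPM (log2 -1.47, SE 0.15); both attract monocytes and T cells. Ccl24, which attracts eosinophils, fell by 3.01 and Ccl22, which attracts regulatory T cells, by 1.21. Ccl9 rose from 1207 and 1033 to 1588 and 1605 CPM, a call that was lost without control replicate 2 (adjusted p 0.0591). Ccl17 had 0 reads in the control libraries and 58 in the Dex libraries (at least 17.9-fold). Of 9 tested CXC chemokines, 2 were higher (1 without control replicate 2 or Dex replicate 2), 2 lower and 5 not called. Cxcl10, a ligand of CXCR3 that recruits T cells, was at 11050, 9075, 11435 and 10492 CPM (log2 0.12, SE 0.12, adjusted p 0.470), and Cxcl9, another CXCR3 ligand, at 5400, 4669, 5045 and 5136 CPM (log2 0.02, SE 0.12, adjusted p 0.937). For these abundant transcripts the groups overlapped. Cxcl1, which attracts neutrophils, went from 112 and 77.1 to 175 and 179 CPM (log2 0.90), while Cxcl16 fell by 0.84.

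All 7 tested chemokine receptor genes were called, 5 lower and 2 higher. Cxcr4, the receptor for the marrow retention signal CXCL12, was higher by 1.14. Ccr1 was higher by 0.49, a call lost without control replicate 2 or Dex replicate 1. Without Dex replicate 2, 3 receptors were lower.

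Factors that carry or end the inflammatory signal changed in both directions. Of 22 tested NF-κB subunits and inhibitors 9 were called lower, among them Rel, from 610 and 559 to 265 and 235 CPM (log2 -1.23, SE 0.14), and Nfkb1, from 1361 and 1368 to 819 and 792 CPM (log2 -0.76, SE 0.11). That count was 5 without either control replicate, 4 without either Dex replicate and 5 to 13 over the other scalings, filters and tests. Of 10 dual specificity phosphatases, which remove phosphate from MAP kinases, 3 were higher and 3 lower: Dusp2 and Dusp7 rose by 1.11 and 1.32 beside Dusp1, and Dusp16 fell by 0.84. Of 12 mRNA decay factors 4 were higher (2 without control replicate 1) and 1 lower. Zc3h12a, which encodes the RNase regnase-1 that degrades Il6 mRNA, rose from 184 and 185 to 293 and 297 CPM (log2 0.67, SE 0.10, adjusted p 0.000142), and the tristetraprolin relative Zfp36l2 rose by 0.88. Of 23 immediate early transcription factors 11 were lower and 5 higher. The lower ones included the AP-1 subunit Jun, which fell by 0.65, and Ier3, which fell by 1.25, and the higher ones Klf4 (2.33) and Ier2 (2.24). The 11 lower became 9, 8, 9 and 6 without control replicates 1 and 2 and Dex replicates 1 and 2 in turn.

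Genes induced by type I interferon were lower as a group. Of 63 tested members 41 were called lower and 2 higher, with a median log2 fold change of -0.62, and leaving out a library left 36 to 40 lower. Mx1 (chromosome 16, 97447035 to 97462907), an antiviral dynamin-like GTPase, went from 1151 and 1080 to 213 and 200 CPM (log2 -2.43, SE 0.12, adjusted p 1.12e-09). Cmpk2, a mitochondrial nucleotide kinase, went from 2029 and 1919 to 511 and 481 CPM (log2 -1.99, SE 0.11, adjusted p 5.25e-09). Its neighbour Rsad2, which encodes the antiviral enzyme viperin, went from 4208 and 3506 to 1339 and 1165 CPM (log2 -1.62, SE 0.13). The promoter of Rsad2 printed above holds 1 match to the interferon motif. Isg15, a ubiquitin-like modifier with 3 overlapping matches, went from 652 and 636 to 413 and 403 CPM (log2 -0.66, SE 0.12, adjusted p 0.000864). Ifit1, which binds viral RNA, fell by 0.63. The members called higher were Ifitm6 (log2 1.35) and Ifi27l2a (log2 0.43), and the latter was not called without any 1 of the 4 libraries.

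Genes that answer IFNγ were called in part. Irf1, the transcription factor that relays IFNγ, was at 2901, 2953, 2933 and 2895 CPM (log2 -0.01, SE 0.11, adjusted p 0.973). Among the interferon-inducible GTPases, which act on vacuoles that hold pathogens, 8 of 22 were called lower, 3 higher and 11 neither. The 3 higher were a share near the 14.0% of all genes called higher, and 14.4% of all genes were called lower. Gbp5 was at 5027, 4483, 4784 and 4741 CPM (log2 0.002, SE 0.11), and Irgm1 at 2423, 2144, 2363 and 2253 CPM (log2 0.02, SE 0.10). These levels overlapped between groups, whereas Gbp4 went from 646 and 529 to 189 and 198 CPM (log2 -1.60, SE 0.12, adjusted p 9.24e-08) and Gbp9 fell by 1.18. The 8 lower became 4, 5, 4 and 5 and the 3 higher became 2, 1, 1 and 1 without control replicates 1 and 2 and Dex replicates 1 and 2 in turn, and 5 to 9 were lower over the other scalings, filters and tests. Gbp and Irg genes lie in families of close copies, so reads can be split among them. Of 29 interferon receptor, JAK-STAT, IRF and SOCS genes, 13 were lower and 3 higher, and the 3 became 2, 2, 2 and 1 in the same order. Jak2, the kinase of the IFNγ receptor, fell by 0.96, Irf8 went from 7296 and 7934 to 4489 and 4360 CPM (log2 -0.78, SE 0.11), and the feedback inhibitor Cish fell by 1.19.

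Antigen presentation genes were called lower about as often as all genes tested (14.4%). Of 9 tested MHC class II genes and their activator, 1 was called lower and 0 higher, with 0 to 2 lower over the other scalings, filters and tests. H2-Aa, a class II chain, was at 81.5, 93.4, 97.2 and 92.4 CPM (log2 0.12, SE 0.13, adjusted p 0.527). Ciita, the class II activator, was the member called lower (log2 -0.71, SE 0.22, adjusted p 0.0245), a call lost without control replicate 2 or Dex replicate 1 (adjusted p 0.262 and 0.258). Of 20 class I and immunoproteasome genes, 2 were lower and 0 higher, with 1 to 5 lower over the other scalings, filters and tests. B2m, the light chain of class I, was at 4166, 3862, 3986 and 4015 CPM. Nlrc5, the class I activator, went from 593 and 629 to 283 and 291 CPM (log2 -1.09, SE 0.13, adjusted p 1.24e-05). The other call, the peptide transporter Tap1 (log2 -0.32), was lost without control replicate 2, Dex replicate 1 or Dex replicate 2.

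Costimulatory genes were called on both sides, 6 of 14 lower and 5 higher. Without control replicate 2 or either Dex replicate 3 were higher. Cd86, a ligand of CD28, went from 203 and 178 to 62.9 and 54.6 CPM (log2 -1.70, SE 0.13), and Tnfsf4, which encodes OX40 ligand, fell by 3.41. Havcr2, the gene of the checkpoint receptor TIM-3, rose by 1.94. Havcr2 was low in all 4 libraries, at 2.85, 2.79, 11.1 and 10.5 CPM.

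Enzymes that make inflammatory mediators differed in size of response. Ptgs2 (chromosome 1, 150100031 to 150108227), the inducible cyclooxygenase, went from 3986 and 2780 to 489 and 484 CPM (log2 -2.80, SE 0.15, adjusted p 3.09e-09). The prostaglandin E synthase gene Ptges went the other way, from 13.02 and 8.43 to 23.9 and 28.4 CPM (log2 1.28). The 14 prostaglandin and leukotriene genes had 4 calls in each direction, and 2 were higher without control replicate 2 or either Dex replicate. Nos2, the inducible nitric oxide synthase, went from 2485 and 2827 to 1497 and 1658 CPM (log2 -0.75, SE 0.12, adjusted p 0.000223). Acod1, which makes itaconate, was at 11128, 9659, 10214 and 10610 CPM and was not called.

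Receptors for microbes and debris were called in both directions. Of 21 Toll-like receptors and adaptors 9 were higher, against 14.0% of all genes tested. The 3 lower were a share near the 14.4% of all genes. Tlr13, a sensor of bacterial ribosomal RNA, went from 15.9 and 12.98 to 102 and 99.5 CPM (log2 2.81, SE 0.12, adjusted p 3.22e-10). The LPS coreceptor Cd14 went from 716 and 713 to 1450 and 1499 CPM (log2 1.05, SE 0.14), and Irak3, an inhibitor of Toll-like receptor signalling, rose by 1.71. Without control replicate 2 the higher count was 6, and the 3 lower became 2, 3, 1 and 2 without control replicates 1 and 2 and Dex replicates 1 and 2 in turn. Of 27 scavenger, complement and phagocytic receptor genes 10 were higher and 8 lower. The complement gene C1qa rose by 1.07 and the anaphylatoxin receptor gene C5ar1 by 1.12, while Olr1, a receptor for oxidised LDL, fell by 1.58. The 10 higher became 8, 8, 7 and 6, and the 8 lower became 8, 6, 5 and 5, without control replicates 1 and 2 and Dex replicates 1 and 2 in turn. The lectin receptors also differed. Clec7a, the β-glucan receptor, fell from 443 and 415 to 131 and 120 CPM (log2 -1.77, SE 0.10), and Clec4e, a receptor for mycobacterial glycolipid, rose by 0.96.

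Among genes of the matrix, 8 of 15 metalloproteases and inhibitors were lower and 3 higher. Mmp13, a collagenase, went from 767 and 514 to 195 and 219 CPM (log2 -1.63, SE 0.15). Mmp19 rose by 2.21. Tnc, an extracellular matrix protein of inflamed tissue, fell by 3.38 and Lrrc32, which holds latent TGF-β on the cell surface, by 3.92.

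Metabolic lists had their own patterns. Of 24 glycolysis and HIF1 target genes 12 were lower and 2 higher (1 without any 1 of the 4 libraries), although Pfkfb3 was among the genes that rose most. Hk2, which phosphorylates glucose, fell by 1.20, the lactate exporter gene Slc16a3 went from 154 and 160 to 52.8 and 58.8 CPM (log2 -1.49, SE 0.11), and Hif1a fell by 0.73. The 12 lower became 8, 10, 8 and 8 without control replicates 1 and 2 and Dex replicates 1 and 2 in turn. Hmox1, which breaks down haem, went from 445 and 433 to 1163 and 1095 CPM (log2 1.36, SE 0.11, adjusted p 1.45e-07). Of 14 NRF2 targets 6 were higher, against 14.0% of all genes tested, and 2 lower, a share near the 14.4% of all genes. The 6 higher became 5, 4, 3 and 3 in the same order of left-out libraries, and the 2 lower became 1 each time. Of 20 genes of the unfolded protein and integrated stress responses 7 were higher and 2 lower, led by Chac1 (log2 1.41) and Herpud1 (1.40), with 7 to 11 higher over the other scalings, filters and tests. Of 15 circadian clock genes 5 were higher and 1 lower.

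Some lists rested on small changes that depended on the libraries. Of all genes tested 14.0% were called higher. The oxidative phosphorylation list lay near that share and the cell cycle list little above it. Of 26 lysosomal genes 7 were higher and 0 lower, and the count became 4, 5, 4 and 3 without control replicates 1 and 2 and Dex replicates 1 and 2 in turn. Of 38 cell cycle genes 7 were higher and 0 lower, and the count became 12, 1, 4 and 3 in the same order and 6 to 11 over the other scalings, filters and tests. Of 26 oxidative phosphorylation genes 4 were higher and 0 lower, 0 were called without any 1 of the 4 libraries, and the count ran from 1 to 15 over the other alternatives.

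Of 14 tested genes of the non-canonical BAF complex 2 were lower and 0 higher, a share of lower genes near the 14.4% of all genes tested. These were the ATPase gene Smarca4, which is shared with canonical BAF, from 155 and 196 to 110 and 112 CPM (log2 -0.66, SE 0.14, adjusted p 0.00213), and the actin gene Actb (log2 -0.43), whose call was lost without control replicate 1, Dex replicate 1 or Dex replicate 2.

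**Figure D2:**
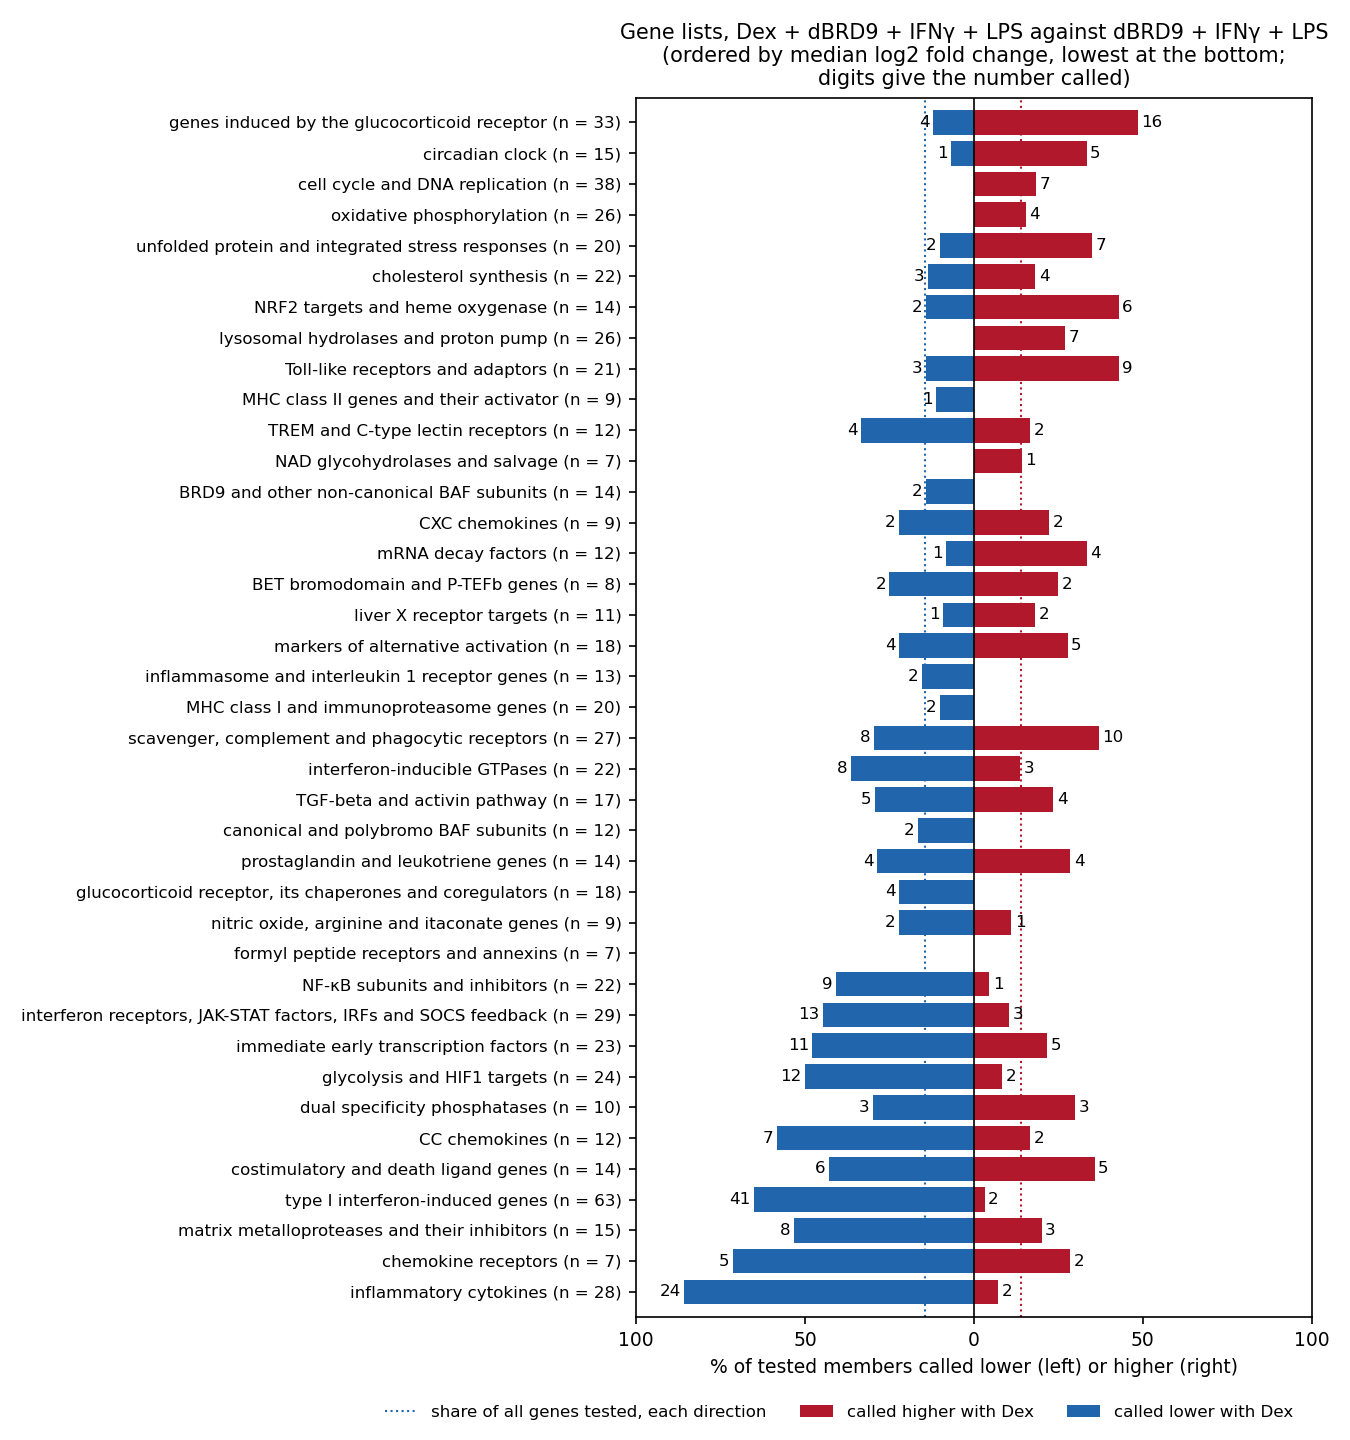
Share of tested members called higher (right) or lower (left) with Dex in each gene list other than cell type markers, in percent. The number called is at the end of each bar, and dotted lines mark the shares of all genes tested, 14.0% higher and 14.4% lower. Cytokines lie at the bottom with 24 of 28 lower, and the genes induced by the glucocorticoid receptor at the top with 16 of 33 higher.

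A few transcripts typical of other cell types moved with Dex. The 10 T and NK cell markers summed to 66.5 and 76.8 CPM in the control libraries and to 47.2 and 45.4 CPM in the Dex libraries. Lck led this sum, while Cd3e, Cd3g and Nkg7 had no reads. Cd4, the other member tested, was at 6.66, 6.53, 7.27 and 6.07 CPM (log2 0.02, SE 0.24) and was not called. The 9 mast cell and basophil markers summed to 32.5 and 28.9 against 13.9 and 14.2 CPM, led by Hdc, with Cma1 and Fcer1a unread. The 11 stromal markers summed to 65.3 and 67.0 against 45.3 and 39.1 CPM, led by Col1a1, with Lum unread. Lck and Hdc were at least 2-fold higher with IFNγ + LPS than with vehicle. The sum of 11 neutrophil markers differed little between groups (21.1 to 23.5 CPM, Ly6g and Retnlg unread). Of the 8 tested, 1 was called lower and 0 higher, with log2 fold changes from -1.86 to 1.41. Sums also differed little for 9 B cell markers (11.1 to 12.5 CPM, Igkc and Pax5 among those unread). The same held for 9 dendritic cell markers (5.26 to 5.67 CPM). The 9 erythroid markers summed to at most 0.513 CPM, with 5 globin and glycophorin genes unread. The part of such cells in the results above was not tested.

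Dex more often lowered than raised genes that IFNγ + LPS had raised, and more often raised than lowered those it had lowered. To sort genes, IFNγ + LPS was compared with vehicle in libraries that the Dex comparison does not use. There 2793 genes (21%) were called and at least 2-fold higher and 2755 (20.7%) called and at least 2-fold lower. Replicates of these groups lay far apart, with a chi-square per degree of freedom of 25.78 (vehicle) and 30.92 (IFNγ + LPS). Of the 2793 raised genes, Dex lowered 1281 (45.86%) and raised 175 (6.266%) in degrader-treated cells, with a median log2 fold change of -0.49. Of the 2755 lowered genes, Dex raised 722 (26.21%) and lowered 64 (2.323%), with a median of 0.44. Of the other 7765 genes, 961 were higher and 572 lower. Vehicle libraries had TMM factors of 1.373 and 1.453 and all others 0.8802 to 0.9515. With library totals alone the median response of all genes to IFNγ + LPS moved from -0.11 to -0.76, and the raised class shrank to 1843 genes. There Dex lowered 822 and raised 146 of these, and raised 1599 and lowered 101 of 5351 lowered genes. The share moved the other way with DESeq2, where Dex raised 436 of 2337 lowered genes, and with relative log expression factors, where it raised 534 of 2537.

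Single genes show the pattern. Tsc22d3 fell from 42.9 and 44.5 CPM in vehicle to 2.61 and 2.73 CPM with IFNγ + LPS, and Il1b rose from 1.61 and 2.01 to 1304 and 1179 CPM. Exceptions were Saa3, Pfkfb3 and Tnfsf9, which both IFNγ + LPS and Dex raised, and Slc40a1, the iron exporter ferroportin, and Rgs2, a regulator of G protein signalling, which both lowered. Slc40a1 went from 73.5 and 55.7 to 21.5 and 18.7 CPM with Dex (log2 -1.69, SE 0.15, adjusted p 6.34e-07).

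**Figure D3:**
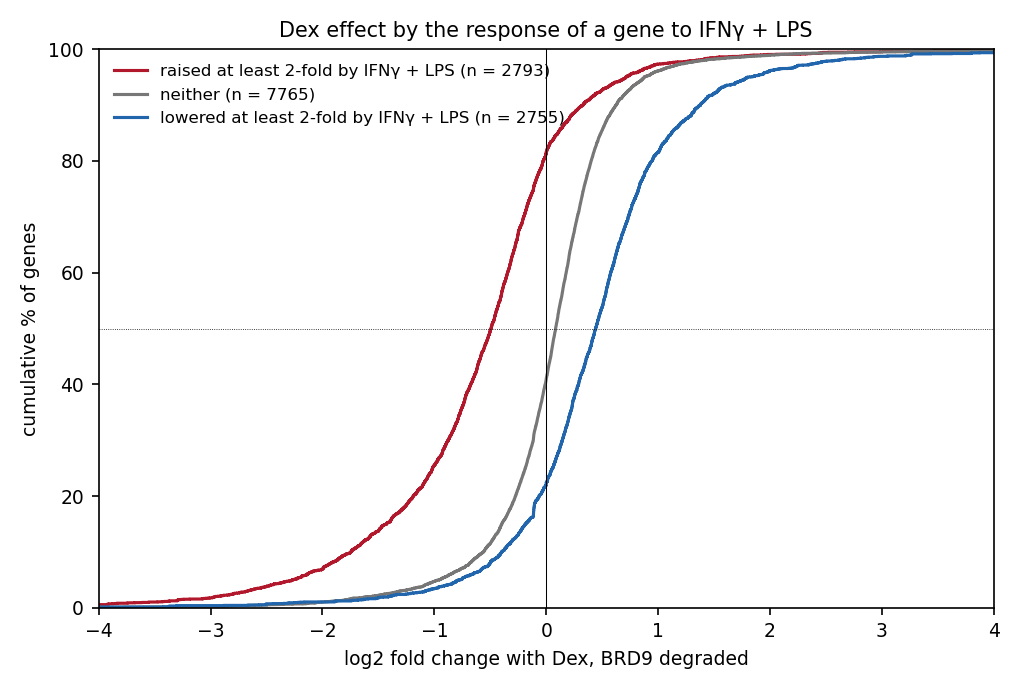
Cumulative share of genes, in percent, against the log2 fold change with Dex in degrader-treated cells, for genes raised at least 2-fold by IFNγ + LPS (2793), lowered at least 2-fold (2755) and neither (7765). The median, where a line crosses 50%, is -0.49 for the raised and 0.44 for the lowered genes.

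The same question without the degrader, Dex + IFNγ + LPS against IFNγ + LPS, uses 4 other libraries of the same experiment. Their replicates lay further apart, with a chi-square per degree of freedom of 30.92 between the IFNγ + LPS libraries and 17.68 between the Dex + IFNγ + LPS libraries. The deviations of genes from their group means were correlated with summed exon length (Spearman's rho, over 7396 genes). The size of rho was 0.291 and 0.571 in these 2 pairs, 0.0293 and 0.0838 in the pairs with the degrader and 0.633 in the vehicle pair. The part of this in the difference was not tested. There 1429 genes (10.7%) were higher and 1226 (9.21%) lower. Of the 1858 genes higher with the degrader present, 994 (53.5%, or 69.56% of the 1429) were called higher without it and 2 lower. Of the 1917 lower genes, 990 (51.64%, or 80.75% of the 1226) were called lower without it and 3 higher. Across the 7473 genes with at least 10 CPM in the higher of the 2 groups, Pearson's r between both log2 fold changes was 0.88. Across all 13313 genes tested it was 0.648. Both values describe genes of 1 experiment, which are not independent. More calls with the degrader than without it do not show that the effect is larger, since that needs a test of the difference.

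The test of the difference, over 8 libraries, called 1 gene (0.00751% of those tested) and had 1222 at an unadjusted p under 0.05. For 6854 (91.72%) of the 7473 genes with at least 10 CPM the 95% interval of the difference lay within 1 on the log2 scale. In these genes the median distance from its centre to either end was 0.41. Of all 13313 genes tested, 7855 (59.0%) had an interval within 1. Fkbp5 differed by 0.15 (95% interval -0.19 to 0.49), Il1b by 0.06 (-0.32 to 0.44), Il12b by -0.24 (-0.63 to 0.14), Tnf by -0.07 (-0.38 to 0.25) and Cxcl10 by 0.08 (-0.28 to 0.44). These 5 intervals cover 0 and reach no further than 0.63 from it, and a difference inside them was not detectable at this depth and number of libraries. For 4 of the 25 fixed genes (listed by hand for their known roles) the interval left out 0, although none of the 4 passed the adjusted test. These were the chemokine gene Ccl2 at -0.61 (-0.96 to -0.26, adjusted p 0.306), Dusp1 at 0.35 (0.05 to 0.66), Cd163 at -1.02 (-1.96 to -0.08) and H2-Aa at 0.48 (0.10 to 0.86). Ccl2 was at -0.52 with the degrader, where it was called (adjusted p 0.00356, but 0.0702 without Dex replicate 2), and at 0.09 without it, where it was not.

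The called gene was A930037H05Rik, a transcript with a clone name only. It was at 23.8, 25.4, 4.53 and 4.34 CPM with the degrader, and at 11.8, 11.5, 12.8 and 8.13 CPM without it (IFNγ + LPS replicates 1 and 2, then Dex + IFNγ + LPS replicates 1 and 2). Dex thus lowered it in degrader-treated cells and the groups overlapped without the degrader. The difference was -2.31 (95% interval -2.91 to -1.72, adjusted p 0.00595). The call was lost without any 1 of the 4 libraries with the degrader (adjusted p 0.0517 to 0.142).

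The number of genes called for the difference moved with the libraries and genes in the fit and with the tool. Without the vehicle libraries, where 12543 genes were tested, 38 were called (8 higher, 30 lower). DESeq2 called 35 of the same 13313 genes (7 higher, 28 lower), and 29 genes were shared by both and had the same sign. With no filter 144 were called. Among these 29 were Mx1, Mx2, Nlrc5, Neat1, Alpk1, Tns1, Kcnk13 and Ifi27l2a, named here after their values were seen. Mx1 fell by 2.43 with the degrader and by 1.62 without it, a difference of -0.81 (95% interval -1.16 to -0.47, adjusted p 0.192 with all libraries, 0.0107 without vehicle, 0.00112 by DESeq2). Tns1 rose by 4.39 with the degrader and by 5.96 without it, a difference of -1.57 (-2.14 to -0.996, adjusted p 0.1, 0.00635 and 2.53e-05). Neat1, a nuclear long noncoding RNA, went from 782 and 662 to 235 and 214 CPM with the degrader and from 494 and 412 to 279 and 283 CPM without it. Nlrc5 went from 430 and 485 to 413 and 331 CPM without the degrader, where the groups did not overlap but it was not called (log2 -0.30). Alpk1, a sensor of bacterial sugar nucleotides, fell by 0.64 with the degrader and rose by 0.57 without it.

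**Figure D4:**
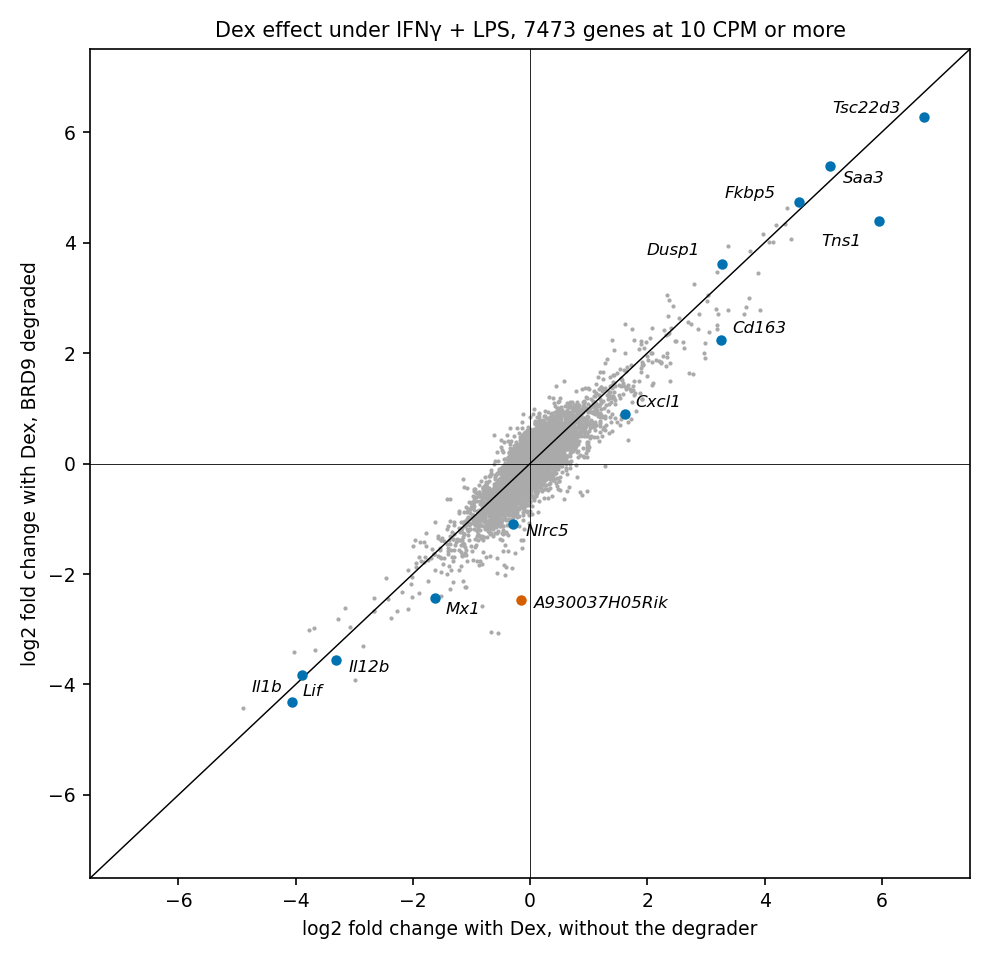
Log2 fold change with Dex in degrader-treated cells (vertical) against that without the degrader (horizontal) for 7473 genes with at least 10 CPM, with the line of equal change. Most genes lie along the line; A930037H05Rik (orange) lies below it at -2.47 against -0.16, and Tns1 at 4.39 against 5.96.

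The values under LPS alone come from experiment 1, where Dex + dBRD9 + LPS was compared with dBRD9 + LPS in 3 libraries each, in a fit of its own. The experiments differ in stimulus, number of libraries, depth and batch. They also differ in the identifiers counted, 54532 in experiment 2 and 35275 in experiment 1. These cannot be told apart, so values are given side by side without a test. There 3680 genes (29.1% of 12662) were called higher and 3384 (26.7%) lower. Of the 1811 genes higher here and tested there, 1103 (60.91%) were higher and 196 (10.82%) lower under LPS alone. Of the 1655 lower here, 955 (57.7%) were lower and 207 (12.51%) higher. Dex + dBRD9 + LPS replicate 1 stood apart from its partners, with a chi-square per degree of freedom of 12.38 and 12.83 against 2.797 between them, and without it 3413 genes were higher and 3208 lower.

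The leading glucocorticoid-induced genes rose in both experiments: Tsc22d3 by 6.27 here and 5.77 under LPS alone, Fkbp5 by 4.74 and 4.06, Dusp1 by 3.62 and 2.96, and Saa3 by 5.39 and 5.68. Cytokines fell in both, with Il1b at -3.83 and -2.34, Il12b at -3.55 and -2.37 and Tnf at -0.49 and -0.73. Il6 was at -2.42 here and -0.38 under LPS alone. The cytokine list had 24 of 28 members lower here and 23 of 28 there.

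Some interferon-driven and presentation genes had other values in the 2 experiments. The type I interferon list was lower in both, with 41 of 63 members lower here (median -0.62) and 54 of 63 under LPS alone (median -1.01). Of 18 GTPase genes tested under LPS alone 16 were lower and 0 higher, with a median of -1.46, against 8 of 22 and a median of -0.10 with IFNγ present. Irgm1 was at -1.41 under LPS alone and 0.02 here, and Irf1 at -0.93 and -0.01. Of 10 MHC class II genes 8 were lower under LPS alone with a median of -1.93, and H2-Aa was at -3.89 there and 0.12 here. Of 20 class I and immunoproteasome genes 18 were lower there (median -0.46) and 2 here (median -0.06). Cxcl10 was at -1.16 and 0.12, and Cxcl9 at -0.78 and 0.02. Without the library that stood apart, the GTPase list was again 16 of 18 lower (median -1.44) and the class II list 8 of 10 (median -1.97). Outside immunity, 21 of 23 cholesterol synthesis genes were lower under LPS alone, and 3 of 22 lower and 4 higher here. The 3 lower, a share near the 14.4% of all genes tested, became 1, 2, 2 and 1 without control replicates 1 and 2 and Dex replicates 1 and 2 in turn. Of 38 cell cycle genes 29 were lower there (median -0.62) and 0 here (median 0.37). All these counts stand beside different shares of all genes tested, 26.7% called lower under LPS alone and 14.4% here.

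**Figure D5:**
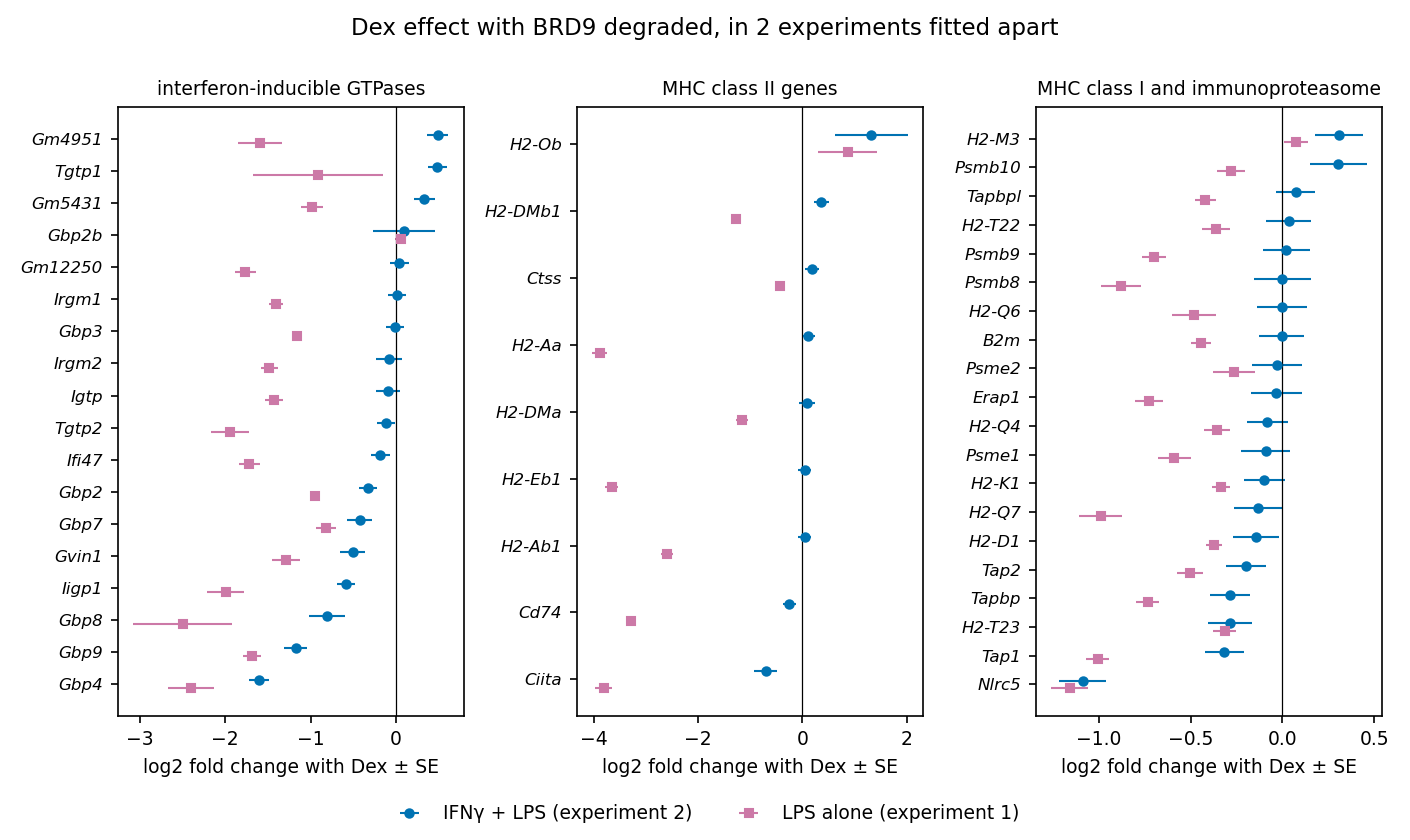
Log2 fold change with Dex in degrader-treated cells, with SE bars, for interferon-inducible GTPases, MHC class II genes and MHC class I with immunoproteasome genes tested in both experiments: circles, IFNγ + LPS; squares, LPS alone. Under LPS alone most squares lie left of 0 (H2-Aa at -3.89), while most circles of the class I and II panels lie near 0 (H2-Aa at 0.12).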

How the data were processed

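Bulk RNA-seq counts per Ensembl gene were used as deposited by the authors, 1 column per library, for 10 libraries of experiment 2 and 21 of experiment 1. Per the submitters' processing notes the build is mm10 and the tools named are fastp, STAR and DESeq2, without roles. Neither counting step, annotation release nor strandedness was given in the sources used here, so reads of overlapping genes on opposite strands may not be separated. Of 54532 identifiers, 54495 were given a symbol from GENCODE M21 (mm10) and 28733 had no count in any library. All 10 libraries of experiment 2, in 5 groups, were fitted together by edgeR 4.0.16 (R 4.3.3, limma 3.58.1) with quasi-likelihood F tests, TMM factors and the filterByExpr filter by group (at least 10 counts, total at least 15), which kept 13313 genes. Experiment 1 was fitted alone (12662 genes). The common biological coefficient of variation was 10.6% with 5 residual degrees of freedom, and 6.79% with 14 in experiment 1. Calls need an adjusted p below 0.05 (Benjamini-Hochberg, over every gene tested). The SE is the log2 fold change divided by the square root of F, and 95% intervals use a t distribution. A fold against a group with 0 reads uses 3 reads over the group and covers counting error only. Scripts were tested on simulated data. Alternatives were DESeq2 1.42.0, library totals, relative log expression factors, no filter, a filter of 5 CPM in 2 libraries, limma voom, a replicate block, fewer groups in the fit and leaving out each library.

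The comparison, the gene lists and the tests were chosen with earlier results of these data known. Named genes are 25 fixed genes, at most 12 called genes in each direction, taken by log2 fold change, at 10 CPM or more and without overlap, up to 6 in each direction for the difference, up to 4 called members with the largest change in each list (or, with fewer than 2 called, the 2 most abundant), and up to 4 in each direction for each class of response to IFNγ + LPS, leaving out pseudogenes and names that are only clone numbers. Other genes named were chosen after their values were seen. The text reports a selection of these, and a few genes are not reported here.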

Additional observations from a re-analysis of the deposited data

Results flagged for a closer look

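The Dex effect on A930037H05Rik differed between cells with and without the degrader by -2.31 on the log2 scale, the only gene that passed the test of that difference over 8 libraries (adjusted p 0.00595 by edgeR). Its call was lost without any 1 of the 4 libraries with the degrader.

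The other genes listed here were called in opposite directions in degrader-treated cells under IFNγ + LPS and under LPS alone, and the libraries of the 2 groups did not overlap in either experiment. The difference between experiments was not tested. The calls of Bcl6, Ccr1 and Ccl9 under IFNγ + LPS depended on single libraries, as given above. Slc40a1, the iron exporter gene, was at -1.69 under IFNγ + LPS and at 0.84 under LPS alone. Jun was at -0.65 and 2.06, Alpk1 at -0.64 and 0.85, Sgk1 at -0.63 and 0.83, and Bcl6, a transcriptional repressor, at -0.41 and 3.16. Higher under IFNγ + LPS and lower under LPS alone were the chemokine receptor gene Ccr1 (0.49 and -1.58), the chemokine genes Ccl9 (0.51 and -1.05) and Cxcl1 (0.90 and -0.56), and Zfp36l2 (0.88 and -0.57). Ccl17 was at least 17.9-fold higher under IFNγ + LPS, where the control libraries had 0 reads, and at -2.56 under LPS alone. Only genes that the text names were compared in this way.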

How the results depend on the processing

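No gene called in degrader-treated cells was called in the opposite direction under any alternative, but the balance of calls did turn: lower genes outnumbered higher ones with TMM factors, and library totals alone gave 2613 higher and 1515 lower. Medians of some lists near 0 also changed sign, such as CXC chemokines (0.016, and -0.057 with DESeq2) and the non-canonical BAF complex (0.041 and -0.032). The 1858 higher genes became 1191 with DESeq2. Leaving out 1 library gave 927 to 1286 higher and 1066 to 1524 lower genes with the degrader, and 792 to 1102 higher and 674 to 973 lower without it. Of the 3775 calls, DESeq2 shared 3015 (79.87%) and the fits without 1 library 1961 to 2555 (51.95 to 67.68%), with 0 of opposite sign. The difference of the Dex effect had 1 gene called, 35 with DESeq2, 144 with no filter, 38 with only the groups compared (for this test the same fit as without vehicle) and 0 to 9 without 1 library. With library totals alone, IFNγ + LPS against vehicle had 2632 genes higher and 7819 lower, in place of 4371 and 4745. Dex without the degrader was called higher in 53.82% of calls, or 64.34% with library totals (1703 and 944), and under LPS alone in 52.1%, or 62.5% (4621 and 2773). The cause of these shifts was not tested. Same-numbered libraries of the 2 groups deviated with a correlation of 0.111, and those of other groups with -0.729 to 0.267. With 2 libraries per group the deviations mirror each other, so these values cannot decide whether the numbers pair libraries. The main fit used no pairing. A replicate block gave 1637 higher and 1750 lower genes, and 1 for the difference. Of 113 named genes called, 97 kept their call without each of the 4 libraries. Depth limits genes of few reads, and 2 libraries per group limit all of them. For genes with at least 10 CPM, the 95% interval of the difference between cells with and without the degrader reached a median of 0.41 to either side on the log2 scale.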
